A study of Mus musculus with 17 samples.

Results

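The genes described are 7 genes of cholesterol and fatty acid handling in mouse macrophages: Ch25h, Hmgcs1, Sqle, Apoe, Abca1, Lpl and Cpt1a. They were chosen as every probe set whose only gene symbol, in the platform's annotation, is 1 of the 7 names. This gave 10 of the 12488 probe sets of the array, and 7 of the 8252 genes named by a probe set of their own. Apoe, Abca1 and Lpl are each read by a pair of probe sets, and 9 of the 10 were bright enough to be tested. Ch25h was selected on its measured rise with IL-6 on these arrays, so its values are given as a description without a test. The other 6 genes were put beside it for their role in lipid handling, with earlier results of these data known, so their calls are not those of an unselected set.

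A macrophage takes in cholesterol with lipoproteins and dead cells, makes more of it from acetyl-CoA, and cannot break the sterol ring down, so it stores the surplus as esters in lipid droplets or exports it to acceptor particles. Ch25h makes an oxysterol that keeps the factor driving the sterol synthesis genes in the endoplasmic reticulum. Hmgcs1 and Sqle are enzymes of sterol synthesis, Abca1 is the pump that loads cholesterol onto apolipoproteins, and Apoe is an apolipoprotein that macrophages secrete. Lpl frees fatty acids from lipoprotein triglycerides, and Cpt1a lets long-chain fatty acids into mitochondria to be burned.

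The macrophages were grown from the marrow of irradiated mice that had received fetal liver cells of SOCS3+/+ embryos (WT) or SOCS3-/- embryos (KO), and were differentiated from the donor-derived cells. SOCS3 is the feedback inhibitor of the gp130 receptor chain through which IL-6 signals, and the question is how its loss alters the response to that cytokine. WT and KO cells were left unstimulated or received 10 ng/ml of IL-6 for 100 or 400 min. Each of the 6 groups had 3 arrays, except unstimulated WT cells with 2. The labels give neither the strain and age of the mice nor whether replicates were separate cultures or mice, so the p-values rest on a spread between arrays that may be technical. In total RNA of a whole culture, fewer cells of a type and less RNA per cell cannot be told apart.

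The array medians of the deposited intensity lay between 164.25 and 216.95, and the 12 macrophage markers looked for were all tested. Their summed normalized intensity was 152650 to 196460 over the 17 arrays, with overlap between all groups, while the summed level of 6 adipocyte markers on the array was 823 to 1627 and that of 9 fibroblast markers 1978 to 3122. Marker sums of 2 lists separated KO cells at 400 min from unstimulated KO cells: 8 dendritic cell and osteoclast markers at 1639 to 2099 against 1156 to 1519, and 13 cell cycle genes at 18561 to 22054 against 23607 to 40700. Their part in the KO changes at 400 min was not tested. Of the dendritic cell markers Zbtb46 was at the floor on 6 arrays, and the osteoclast marker Calcr on 13. On 1 of the pair of Socs3 probe sets, the deposited intensity was 479.7 to 1333 on the 6 stimulated WT arrays and 78.2 to 319.7 on stimulated KO arrays, except that the array labelled KO 400 min replicate 3 read 784.3. The changes of the members in KO cells at 400 min are therefore given with and without that array. Of the stimulated WT arrays, 100 min replicate 3 read lowest, at 479.7 against 1307.6 and 1214.6 for replicates 1 and 2. The replicate 3 arrays stood apart: on the first principal component (12.7% of the variance) 4 of the 5 lay at 26.6 to 58.1 and all other arrays at 2.27 or lower. Unstimulated WT cells had no replicate 3 array, so comparisons that use that group mix the contrast with whatever sets replicate 3 apart. The genotypes also differed in sex-linked genes. The Y-linked Eif2s3y lay at 252.2 to 783.3 on WT and 6.2 to 121.5 on KO arrays, and Xist at 10.7 to 214.3 and 220.5 to 1010, so the sex of the donors and the genotype cannot be told apart in any comparison of KO with WT.

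Ch25h, the cholesterol 25-hydroxylase, rose within 100 min of IL-6 in KO cells to 17.5 times its unstimulated level and was still 9.49 times above it at 400 min. Before IL-6 its deposited intensity was 157.3 and 237.4 on the WT arrays and 227.6, 115.1 and 161.3 on the KO arrays, for replicates 1 to 3 in this order throughout. At 100 min the WT arrays read 603.0, 711.1 and 230.1 and the KO arrays 3519.9, 3373.2 and 1890.4. At 400 min the WT arrays read 162.2, 241.4 and 164.6 and the KO arrays 1411.1, 1294.6 and 1928.8. The 6 stimulated KO arrays were all above the other 11, with no overlap. The WT arrays at 400 min read close to the unstimulated ones, and at 100 min the WT replicate 3 array lay within their range.

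On the log2 scale of the normalized values, the change of Ch25h in KO cells was 4.13 (SE 0.43) at 100 min and 3.25 (SE 0.43) at 400 min. Its standard errors describe the spread between arrays only, since Ch25h was selected on this rise. In WT cells Ch25h changed by 1.31 (SE 0.48) at 100 min and -0.01 (SE 0.48) at 400 min. Between 100 and 400 min its level moved by -1.32 (SE 0.43) in WT and -0.88 (SE 0.43) in KO cells. The KO minus WT difference was -0.21 (SE 0.48) unstimulated, 2.61 (SE 0.43) at 100 min and 3.04 (SE 0.43) at 400 min, which are 6.09 and 8.24 times the WT level at the later times. The KO response exceeded the WT response by 2.82 (SE 0.65) at 100 min and 3.25 (SE 0.65) at 400 min. Without the array labelled KO 400 min replicate 3, the KO change at 400 min was 3.05 and the KO minus WT difference 2.85. Without WT 100 min replicate 3, the WT change at 100 min was 1.83 and the KO minus WT difference 2.09. The KO response then exceeded the WT response by 2.30 at 100 min. Between replicate 3 arrays alone, the KO changes were 3.50 and 3.60, the latter read from the array labelled KO 400 min replicate 3. With replicates 1 and 2 alone they were 4.44 and 3.07.

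**Figure D1:**
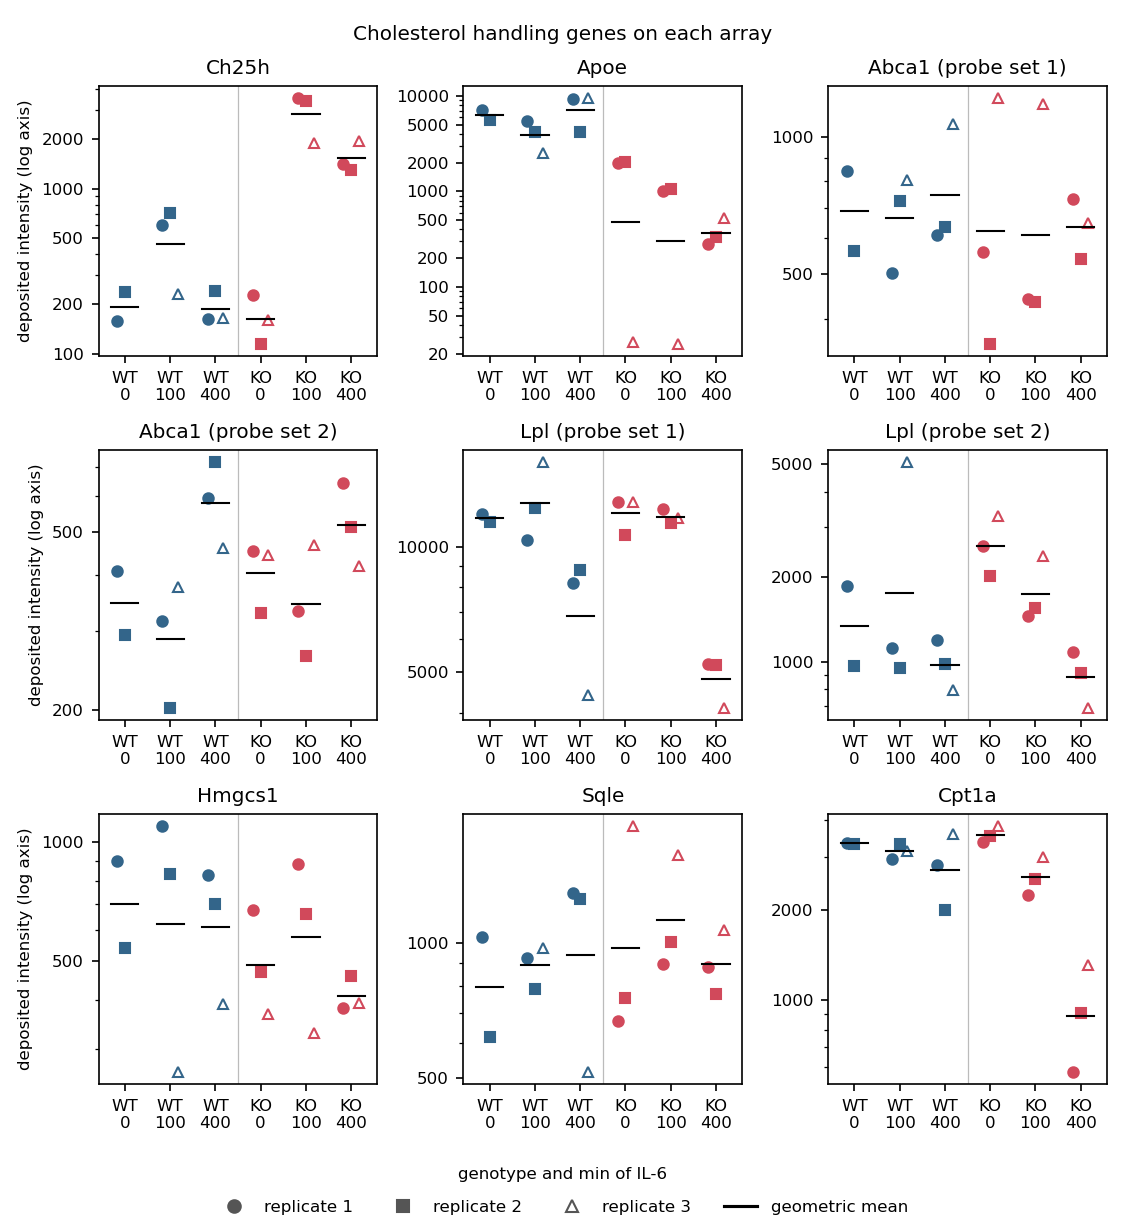
Deposited intensity of each tested probe set of the 7 genes on every array, on a log axis, by genotype and minutes of IL-6; symbols are replicates 1 to 3 and the black lines are geometric means. Ch25h separates the stimulated KO arrays from the rest, and Apoe separates KO from WT at each time. Cpt1a is lowest on the KO arrays at 400 min. The first Lpl probe set has its lowest mean there, with overlap through WT 400 min replicate 3.

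The genes whose normalized log2 values followed Ch25h most closely over the 17 arrays were Selp (Pearson r = 0.936), the adhesion molecule P-selectin, Mcoln2 (r = 0.930), a lysosomal ion channel, and Nampt (r = 0.926), an enzyme of NAD synthesis. Gbp7 (r = 0.925), a guanylate-binding protein, and Irf1 (r = 0.922), an interferon regulatory factor, came next. The arrays share their groups, so these values describe likeness of pattern only. Among the 9 other tested genes of oxysterols, sterol esterification and lysosomal sterol release, none was called in any of the 11 comparisons. At most 1.82% of all probe sets were called in a comparison, so a count of 0 among 9 says little. The median change of the 9 genes in KO cells at 400 min was -0.20, against -0.04 over all probe sets tested. That list was drawn up with earlier results of these data known, as were the other lipid lists.

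The promoter of Ch25h is shown because it belongs to the member with the largest change after IL-6. It is the 250 bases before the RefSeq start of transcription on the minus strand, chr19:34475149-34475398 of GRCm38.p6.
Ch25h: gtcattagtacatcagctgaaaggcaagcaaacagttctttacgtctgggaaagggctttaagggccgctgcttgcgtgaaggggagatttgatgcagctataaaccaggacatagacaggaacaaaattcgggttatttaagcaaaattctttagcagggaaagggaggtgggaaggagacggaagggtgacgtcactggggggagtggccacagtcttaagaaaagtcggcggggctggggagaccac
A search of both strands found neither TTCNNNGAA, the letters that STAT factors bind, nor the interferon response element in this window. Of 32851 RefSeq promoter windows of this length, 7.02% hold the first and 2.98% the second motif. The absence covers these letters in this window only.

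Hmgcs1, which makes the HMG-CoA that enters the mevalonate pathway, and Sqle, the squalene epoxidase, showed no call in any comparison. The deposited intensity of Hmgcs1 was 898.2 and 541.2 in unstimulated WT cells, 1099.1, 831.4 and 262.8 at 100 min and 829.6, 700.2 and 389.7 at 400 min. In KO cells Hmgcs1 read 674.5, 469.9 and 367.7 unstimulated, 879.9, 658.8 and 329.1 at 100 min and 380.3, 460.4 and 391.9 at 400 min. WT and KO arrays overlapped at each time, and in 4 of the 5 groups with a replicate 3 array that array was the lowest. The log2 change of Hmgcs1 at 400 min in KO cells was -0.23 (SE 0.51, limma adjusted p = 0.927), with a 95% interval of -1.33 to 0.87. At the same time KO minus WT was -0.60 (SE 0.51, adjusted p = 0.808). Without the array labelled KO 400 min replicate 3 these were -0.15 and -0.53.

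Sqle read 1027.0 and 618.4 in unstimulated WT cells, 925.5, 789.2 and 972.4 at 100 min and 1286.2, 1251.8 and 517.5 at 400 min. In KO cells it read 671.2, 755.0 and 1809.8 unstimulated, 897.1, 1002.2 and 1565.3 at 100 min and 884.2, 767.9 and 1066.1 at 400 min. In the KO groups the replicate 3 array was the highest each time, and WT and KO arrays overlapped. The change of Sqle in KO cells was 0.22 (SE 0.42) at 100 min and by 400 min -0.07 (SE 0.42, adjusted p = 0.973), the latter with a 95% interval of -0.98 to 0.83. Without the doubted KO 400 min array it was -0.20. The rise in Ch25h was not accompanied by a called change in either enzyme. The intervals give the changes that the arrays allow, not the smallest change that would be called. With 3 arrays a group, a change larger than these intervals also went uncalled. The second Lpl probe set changed by -1.55 (SE 0.50, limma adjusted p = 0.184) in KO cells at 400 min. The lack of a call therefore does not show that Hmgcs1 or Sqle was unchanged.

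Of the 20 sterol synthesis genes listed, 16 were on the array and tested, and 0 were called in any of the 11 comparisons. Over all probe sets of the KO 400 min comparison, limma gave an unadjusted p under 0.05 to 1202. The median change of the 16 at 400 min was -0.10 in KO cells and 0.22 in WT cells, and the median KO minus WT difference was -0.26, against -0.04, -0.01 and -0.02 over all probe sets tested. None of the 3 tested genes of sterol sensing and low density lipoprotein uptake was called. At most 1.82% of all probe sets were called in a comparison, so a count of 0 says little for either list. The Hmgcs1 promoter, chr13:119690101-119690350 of GRCm38.p6 on the plus strand, is shown because it alone of the 5 genes with a window holds the sterol response letters TCACNCCAC, in capitals, at 137 to 129 bases before the start. Of all windows, 1.05% hold them.
Hmgcs1: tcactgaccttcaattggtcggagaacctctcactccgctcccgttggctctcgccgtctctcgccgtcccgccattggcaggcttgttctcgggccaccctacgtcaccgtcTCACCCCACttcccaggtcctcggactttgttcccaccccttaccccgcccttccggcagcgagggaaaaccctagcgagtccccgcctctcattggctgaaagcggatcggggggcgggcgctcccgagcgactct

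Apoe read lower in KO than in WT cells on every array and at every time, without a call in the fit over all arrays. In WT cells the deposited intensity was 7140.3 and 5539.0 unstimulated, 5523.6, 4167.9 and 2530.0 at 100 min and 9304.3, 4140.1 and 9441.2 at 400 min. In KO cells it was 2002.3, 2019.3 and 26.7 unstimulated, 1014.9, 1061.8 and 25.5 at 100 min and 280.4, 336.2 and 530.9 at 400 min. Each of the 9 KO arrays lay below each of the 8 WT arrays, and the KO replicate 3 arrays at 0 and 100 min were far below all others. This separation was seen first and then counted. Among the 9871 probe sets tested, 9 had every KO array below every WT array (0.0912%) and 5 had every KO array above (0.0507%); Eif2s3y is among the former and Xist among the latter.

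The KO minus WT difference of Apoe was -3.70 before IL-6 (SE 1.65, limma adjusted p = 0.834) and -3.56 at 100 min (SE 1.48, adjusted p = 0.938). By 400 min it was -4.28 (SE 1.48, adjusted p = 0.378). The last is 19.4-fold lower, with a 95% interval of -7.46 to -1.10. It was -4.53 with the doubted KO 400 min array left out (adjusted p = 0.408). The SD of Apoe on the log2 scale was 3.50 in unstimulated KO cells and 0.26 in unstimulated WT cells. With replicates 1 and 2 alone, the difference at 400 min was -4.35 (SE 0.37, limma adjusted p = 0.00196), at 100 min -2.12 (adjusted p = 0.0779) and unstimulated -1.67 (adjusted p = 0.234). Between replicate 3 arrays alone it was -6.43 at 100 min and -4.15 at 400 min, the latter read from the doubted KO 400 min array. The KO replicate 3 arrays at 0 and 100 min, at 30.3 and 29.9 after normalization, lay just above the floor of 22.01, so the size of any difference that includes them is uncertain.

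Within KO cells, Apoe of replicates 1 and 2 was lower at 100 min than before IL-6 and lower again at 400 min, while in replicate 3 it was highest at 400 min. The change at 400 min was -0.43 (SE 1.48, limma adjusted p = 0.951) over all arrays, and -2.71 (SE 0.37, adjusted p = 0.00976) with replicates 1 and 2 alone. Without the array labelled KO 400 min replicate 3, which is the highest Apoe reading of its group, the change was -0.68 (adjusted p = 0.941). In WT cells the change was -0.77 (SE 1.65) at 100 min and by 400 min 0.15 (SE 1.65, adjusted p = 0.999). The other Apoe probe set was dim, with deposited intensities of 4.0 to 203.8, and was not tested.

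Apoe lies on chromosome 7 beside the genes of other small apolipoproteins, with Apoc1 and then Apoc4 on 1 side and Tomm40 on the other in RefSeq GRCm38.p6. Apoc2 is an activator of lipoprotein lipase and Apoc1 an inhibitor of lipoprotein uptake; these genes were looked at because of the Apoe values. The deposited intensity of Apoc2 ranged from 418.0 to 1174.8 on WT and from 80.6 to 571.1 on KO arrays, so that the genotypes overlapped at their edges. Its KO minus WT difference was -1.61 before IL-6 (SE 0.67, limma adjusted p = 0.834) and -1.38 at 100 min (SE 0.60, adjusted p = 0.980). By 400 min it was -2.02 (SE 0.60, adjusted p = 0.252). Apoc1 at 400 min read 64.1, 259.4 and 286.9 on WT arrays against 36.9, 34.1 and 34.2 on KO arrays. The difference was -2.24 (SE 0.51, adjusted p = 0.102). After normalization those KO arrays lay at 32.6 to 39.5, near the floor of 22.01, so the size of the Apoc1 difference is uncertain. Leaving out WT 400 min replicate 1, the lowest WT array, gave -2.93 (adjusted p = 0.0119), a call, and leaving out any other single array gave none. Without the array labelled KO 400 min replicate 3, Apoc1 differed by -2.19 and Apoc2 by -2.47, neither called. At 100 min the Apoc1 difference was 0.36 (SE 0.51), in the other direction. There the KO arrays read 168.9, 169.5 and 134.5, each above the WT arrays at 122.3, 105.1 and 123.5. Apoc4 was dim, at 16.1 to 256.5 on all arrays, and its difference at 400 min was -0.39 (SE 0.56, adjusted p = 0.900).

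**Figure D2:**
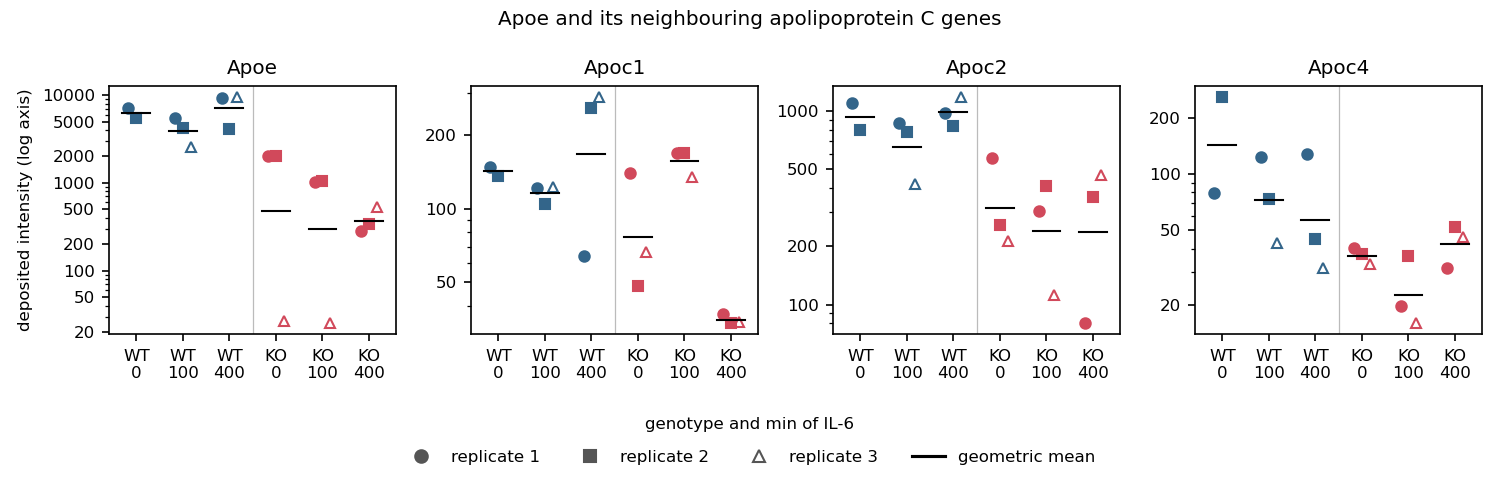
Deposited intensity of Apoe and of Apoc1, Apoc2 and Apoc4 on every array, on a log axis, by genotype and minutes of IL-6; symbols are replicates 1 to 3 and black lines are geometric means. The KO arrays of Apoe lie below all WT arrays, with replicate 3 at 26.7 and 25.5 at 0 and 100 min. Apoc1 separates the genotypes at 400 min, with KO lower, and at 100 min, with KO higher.

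The Apoe promoter is shown because Apoe is the only member whose KO arrays, over all times, all lay below all WT arrays. RefSeq gives 3 windows for its starts, and the first, chr7:19699189-19699438 of GRCm38.p6 on the minus strand, holds none of the motifs searched.
Apoe: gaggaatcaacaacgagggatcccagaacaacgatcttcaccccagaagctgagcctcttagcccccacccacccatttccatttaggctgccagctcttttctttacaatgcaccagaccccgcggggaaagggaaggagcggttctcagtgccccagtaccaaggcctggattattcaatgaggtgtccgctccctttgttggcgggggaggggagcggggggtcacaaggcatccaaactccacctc
These include the LXR direct repeat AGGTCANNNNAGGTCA, which 0.0152% of all windows hold, and the E-box CACGTG, which 6.02% hold. Among the members the E-box was found only in the Abca1 window, 147 to 142 bases before the start.

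Abca1 showed no call on either of its probe sets, which differed from each other in pattern (Pearson r = 0.349 over the 17 arrays). The first read 842.2 and 564.0 in unstimulated WT cells, 502.2, 724.9 and 805.0 at 100 min and 610.2, 635.5 and 1069.3 at 400 min. In KO cells it read 558.5, 352.1 and 1217.2, then 441.2, 435.3 and 1181.9, then 730.8, 539.5 and 649.5. All groups overlapped, and replicate 3 was the highest array in 4 of the 5 groups that have one. On this probe set the KO change at 400 min was 0.09 (SE 0.46, limma adjusted p = 0.969), with a 95% interval of -0.91 to 1.09, and without the doubted KO 400 min array 0.08.

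The second Abca1 probe set read 409.3 and 293.7 in unstimulated WT cells, 316.0, 202.2 and 375.7 at 100 min and 596.2, 715.5 and 460.1 at 400 min. In KO cells it read 453.1, 330.0 and 445.0, then 332.4, 264.0 and 468.4, then 644.5, 513.6 and 418.8. All WT arrays at 400 min lay above all WT arrays at the earlier times, which the KO arrays did not do. Its change at 400 min was 0.82 (SE 0.35, limma adjusted p = 0.743) in WT and 0.39 (SE 0.31, adjusted p = 0.707) in KO cells, or 0.57 in the latter without the doubted array. Both intervals, 0.08 to 1.57 and -0.27 to 1.06, allow a log2 change of 1. Of the 13 tested genes of LXR, efflux and apolipoproteins, members included, 0 were called in any comparison, where at most 1.82% of all probe sets were. Their median change in KO cells at 400 min was -0.43 and their median KO minus WT difference -0.24, against -0.04 and -0.02 over all probe sets tested.

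Lpl was 2.63-fold lower in KO cells at 400 min than before IL-6 on its first probe set. That probe set read 11990.7 and 11471.0 in unstimulated WT cells, 10409.2, 12443.4 and 16003.5 at 100 min and 8220.7, 8793.3 and 4413.1 at 400 min. In KO cells it read 12843.2, 10697.9 and 12826.8 unstimulated, 12373.3, 11421.3 and 11774.4 at 100 min and 5230.7, 5206.7 and 4109.7 at 400 min. The 400 min arrays of each genotype lay below every array of the earlier times. The 2 genotypes overlapped at 400 min through WT replicate 3.

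The change of Lpl in KO cells was -0.11 (SE 0.25) at 100 min and by 400 min -1.39 (SE 0.25, limma adjusted p = 0.0120). In KO cells at 400 min, 3 of the 7 members were called, Ch25h higher and Lpl and Cpt1a lower, against 1.82% of all probe sets (1.2% higher and 0.628% lower). Nothing is read from Ch25h in that count. In WT cells Lpl changed by -0.88 (SE 0.28, adjusted p = 0.586) at 400 min. The KO response differed from the WT response by -0.51 (SE 0.38, adjusted p = 0.938), so the call in KO cells alone does not show that the genotypes differ. The KO call was lost without unstimulated KO replicate 1 (adjusted p = 0.0536) and kept without the array labelled KO 400 min replicate 3 (-1.30, adjusted p = 0.0384). The second probe set in KO cells read 2561.7, 2014.1 and 3292.7 unstimulated, 1453.6, 1548.6 and 2363.4 at 100 min and 1087.9, 916.2 and 689.4 at 400 min. In WT cells it read 1856.6 and 972.0, then 1122.6, 952.1 and 5081.3, then 1194.5, 983.6 and 797.8. Before IL-6 its KO arrays all lay above its WT arrays, without a call (KO minus WT 0.93, SE 0.56, limma adjusted p = 0.875). The WT replicate 3 array at 100 min was the highest of all, and the KO arrays at 400 min lay below those of both earlier times. There the KO change was -1.55 (SE 0.50, adjusted p = 0.184). It was called without that WT array (adjusted p = 0.0184), and was -1.38 (adjusted p = 0.356) without the array labelled KO 400 min replicate 3. The probe sets correlated with r = 0.711 over the 17 arrays.

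Plin2 and Fabp5 were the other called genes among 13 tested of lipid uptake and lipolysis, both in KO cells at 400 min. In that comparison 1.2% of all probe sets were called higher and 0.628% lower. Plin2, which coats lipid droplets, fell from 18120.8, 18783.8 and 14081.2 in unstimulated to 8499.7, 6358.1 and 7572.1 in 400 min KO cells. Fabp5, a fatty acid carrier, rose from 603.7, 613.0 and 633.3 to 1939.2, 1530.7 and 2357.0. For both, the 3 KO arrays at 400 min lay beyond every other array. The changes were -1.23 (SE 0.21, limma adjusted p = 0.00951) for Plin2 and 1.67 (SE 0.29, adjusted p = 0.0105) for Fabp5. In WT cells they were -0.50 (SE 0.24, adjusted p = 0.794) and 0.62 (SE 0.33, adjusted p = 0.827). KO minus WT at 400 min was -0.76 for Plin2 and 1.22 for Fabp5. The KO response differed from the WT response by -0.73 and 1.05. None of these differences was called, so the calls in KO cells alone do not show that the genotypes differ. The Plin2 call was lost without KO 400 min replicate 2 (adjusted p = 0.0550), and both were kept without the array labelled KO 400 min replicate 3 (-1.27, adjusted p = 0.0206, and 1.49, adjusted p = 0.0378).

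**Figure D3:**
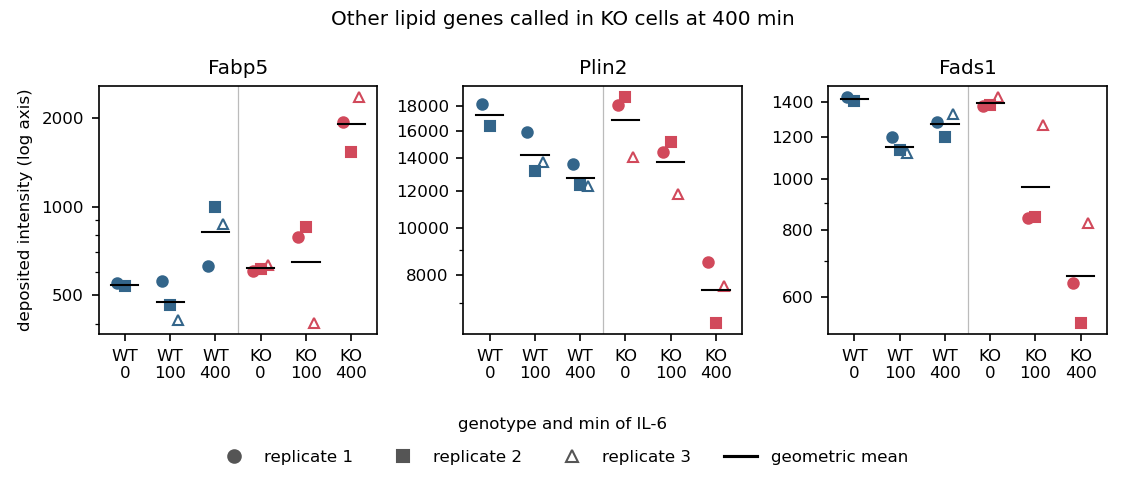
Deposited intensity of Plin2, Fabp5 and Fads1, the called genes of the lipid lists beyond the 7 members, on every array, on a log axis, by genotype and minutes of IL-6; symbols are replicates 1 to 3 and black lines are geometric means. In KO cells at 400 min the Fabp5 arrays are the highest of all, and those of Plin2 and Fads1 the lowest.

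Cpt1a was 3.99-fold lower in KO cells at 400 min than before IL-6, and 2.98-fold lower than in WT cells at that time. In WT cells it read 3354.2 and 3317.5 unstimulated, 2965.8, 3311.3 and 3155.4 at 100 min and 2822.4, 1999.7 and 3589.7 at 400 min. In KO cells it read 3357.7, 3523.4 and 3801.0 unstimulated, 2244.5, 2529.6 and 2999.0 at 100 min and 579.1, 910.7 and 1312.4 at 400 min. The 3 KO arrays at 400 min were the lowest of all 17. The highest of them was the array labelled KO 400 min replicate 3, and the KO arrays at 100 min were all below the unstimulated ones.

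The change of Cpt1a in KO cells was -0.50 at 100 min (SE 0.29, limma adjusted p = 0.925). By 400 min it was -1.995 (SE 0.29, adjusted p = 0.00358), with a 95% interval of -2.61 to -1.38. In WT cells it was -0.33 (SE 0.32, adjusted p = 0.964) at 400 min. KO minus WT was 0.09 (SE 0.32) unstimulated, -0.27 (SE 0.29) at 100 min and by 400 min -1.57 (SE 0.29, adjusted p = 0.0343). The difference between the responses at 400 min was -1.66 (SE 0.43, unadjusted p = 0.00183, adjusted p = 0.463) and was not called. In the comparison of KO with WT at 400 min, 2 of the 7 members were called, Ch25h higher and Cpt1a lower, against 0.365% of all probe sets (0.314% higher and 0.0507% lower), and nothing is read from Ch25h in that count either. Without the array labelled KO 400 min replicate 3, KO minus WT was -1.87 (adjusted p = 0.0146) and the KO change -2.29 (adjusted p = 0.00167). The KO minus WT call was lost on leaving out 10 of the 17 arrays in turn, with adjusted p up to 0.133: each WT array at 400 min, each unstimulated KO array, KO 400 min replicates 1 and 2, and replicate 2 of WT and of KO at 100 min. The KO call at 400 min was kept on leaving out any of the 17.

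**Figure D4:**
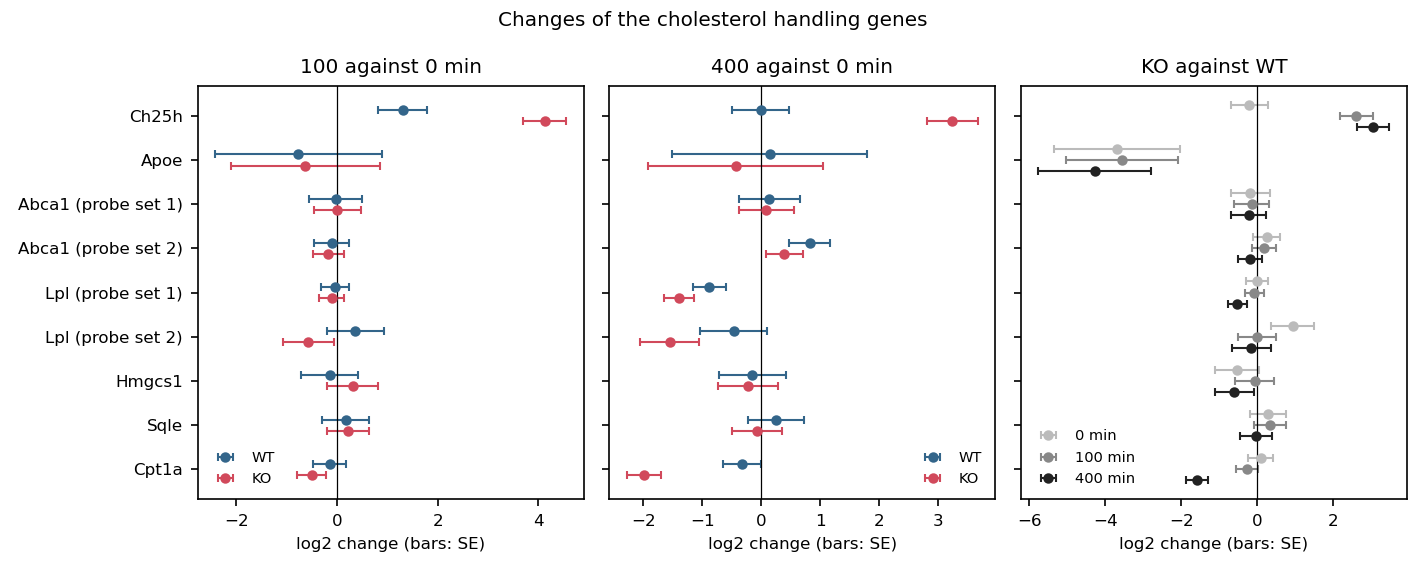
Log2 change of each tested probe set of the 7 genes against unstimulated cells, in WT and KO cells after 100 and 400 min of IL-6. The last panel gives KO against WT at each time. Bars are standard errors from the fit over all 17 arrays. Ch25h reaches 4.13 and 3.25 in KO cells, and the first Lpl probe set and Cpt1a fall to -1.39 and -1.995 at 400 min. The Apoe standard errors exceed its changes with IL-6, but not its KO minus WT differences.

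The Cpt1a promoter, chr19:3323051-3323300 of GRCm38.p6 on the plus strand, is shown because Cpt1a is the only member called lower in KO than in WT cells. None of the motifs searched was in it.
Cpt1a: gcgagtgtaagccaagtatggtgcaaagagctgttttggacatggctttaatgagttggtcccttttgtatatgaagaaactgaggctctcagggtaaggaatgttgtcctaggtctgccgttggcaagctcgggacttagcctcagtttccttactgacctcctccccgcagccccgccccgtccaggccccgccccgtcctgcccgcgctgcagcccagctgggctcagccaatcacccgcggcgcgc

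Of the 21 tested genes of fatty acid oxidation, Cpt1a alone was called, in both comparisons that called it. The median change of the 21 in KO cells at 400 min was -0.31 and 4 of them had a change above 0. Of the 10 tested genes of fatty acid synthesis, Fads1, the delta-5 desaturase of polyunsaturated fatty acids, was called in KO cells at 400 min. It fell from 1374.5, 1379.9 and 1425.3 to 636.7, 536.0 and 827.9, a change of -1.05 (SE 0.21, limma adjusted p = 0.0219), or -1.22 (adjusted p = 0.0142) without the array labelled KO 400 min replicate 3. That call was lost on leaving out 5 of the 17 arrays in turn: each unstimulated KO array and KO 400 min replicates 1 and 2, with adjusted p up to 0.104. The median change of the 10 genes was -0.54, against -0.04 over all probe sets tested. Over the 7 lists, 79 tested genes are not members: 1 was called higher and 2 lower in KO cells at 400 min, against 1.2% and 0.628% of all probe sets. None of the 79 was called in the other 10 comparisons of the fit over all arrays. Those called at most 0.577% of all probe sets and in 5 of them none, so a count of 0 says little there. Fads1 KO minus WT at 400 min was -0.93 over all arrays. It was -1.10 (limma adjusted p = 0.0421), a call, without the array labelled KO 400 min replicate 3.

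**Figure D5:**
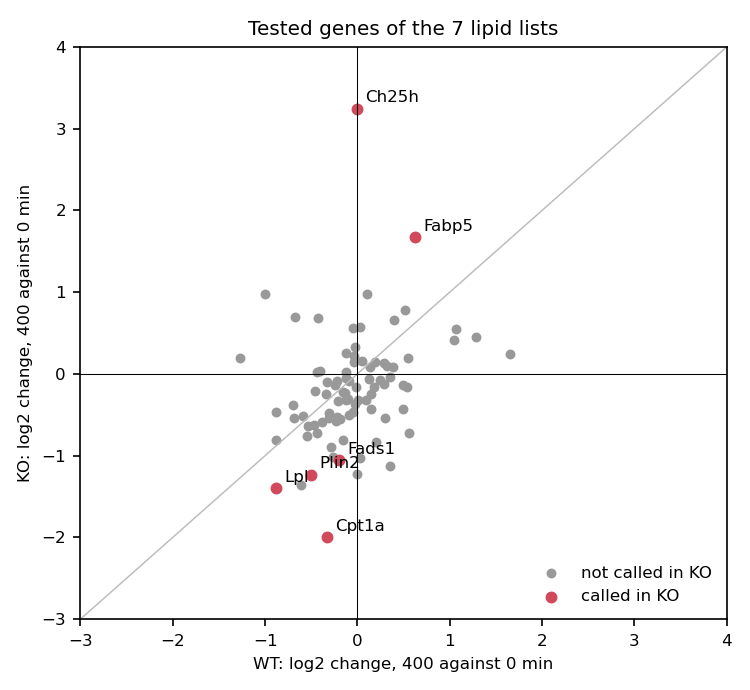
Log2 change at 400 min against unstimulated cells in WT (horizontal) and KO cells (vertical) of the 86 tested genes of the 7 lipid lists; each point is a gene and the diagonal marks equal change. Changes span -1.27 to 1.65 in WT and -1.995 to 3.25 in KO cells, with Ch25h at the top and Cpt1a at the bottom.

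Counted over the members by comparison, 0 of 7 were called in WT cells at 100 min, at 400 min and between both times, where 0.0101%, 0.0101% and 0% of all probe sets were called and limma gave 604, 618 and 622 an unadjusted p under 0.05. In KO cells at 100 min none of the other 6 members was called, against 0.577% of all probe sets (0.537% higher); Ch25h passed the threshold, from which nothing is read, since it was selected on that rise. Between 100 and 400 min in KO cells 0 members were called, against 0% of all probe sets and 891 at an unadjusted p under 0.05; Lpl at -1.29 (SE 0.25, adjusted p = 0.144) and Cpt1a at -1.49 (SE 0.29, adjusted p = 0.144) were the members nearest to a call. Both were called there with a variance prior that follows intensity and is robust to outliers (adjusted p = 0.00722 and 0.0125), and Cpt1a with replicate 3 as a batch (adjusted p = 0.0341). No member was called between unstimulated KO and WT cells (0% of all, 591 unadjusted) or at 100 min (0.0405% of all, 0.0304% higher, 483 unadjusted). A fit of the compared groups alone, with fewer arrays behind the spread, called 0 members in KO cells at 100 min, 1 (Ch25h) at 400 min and 0 between KO and WT at 400 min, and lost the Plin2, Fabp5 and Fads1 calls (adjusted p = 0.130, 0.0766 and 0.187). No member was called for the difference between the responses at 100 and at 400 min, with 0% of all probe sets called and 361 and 531 at an unadjusted p under 0.05.

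The members followed different genes over the 17 arrays. Cpt1a was most like Nbeal2 (Pearson r = 0.955), Pdcd4 (r = 0.921) and H2az2 (r = 0.914), and the first Lpl probe set most like Rtn4 (r = 0.949), Pmp22 (r = 0.927) and Rell1 (r = 0.896). Apoe was most like Tbcel (r = 0.916), Coro1b (r = 0.859) and Rgl2 (r = 0.850). Hmgcs1 was most like B3galnt1 (r = 0.896), Zfp598 (r = 0.871) and Rab5if (r = 0.861), and Sqle most like Csrp1 (r = 0.830), Pmf1 (r = 0.766) and Cdk2 (r = 0.756). The first Abca1 probe set was most like Vps35 (r = 0.811), D17H6S56E-5 (r = 0.808) and Diaph3 (r = 0.805), and the second most like Mydgf (r = 0.810), Slc35b1 (r = 0.799) and Glg1 (r = 0.798). For the second Lpl probe set these were Gcsh (r = 0.880), Adam8 (r = 0.872) and Rpa1 (r = 0.850). Between members, the first Lpl probe set and Cpt1a had r = 0.684. These values share the arrays and their groups and describe likeness of pattern.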

How the data were processed

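Total RNA was measured on 17 Affymetrix mouse arrays. The authors' deposited values are linear intensities, 1 per probe set and array; from the values, each array had been scaled to a like trimmed mean (500.3 to 500.4 without the 2% at each end). What software and background correction were used is not given in the sources used here. Intensities were quantile normalized, raised to at least 22.01 (their 10th percentile) and log2 transformed. Control probe sets (66) were left out, and 9871 probe sets were tested, those that on 2 or more arrays exceeded the 40th percentile. limma 3.58.1 in R 4.3.3 fitted 1 mean per group over all 17 arrays; the two-sided test was adjusted (Benjamini-Hochberg, 9871 probe sets) within each of 11 comparisons, with calls under 0.05. The fit was tested on simulated data. Alternatives were other scalings, floors and filters, another variance prior, the replicate number or replicate 3 as a block, replicates 1 and 2 only, the compared groups only, and each array left out in turn. A lipid list takes each gene's probe set of the highest mean. Where a member has several probe sets, each is reported. Named genes were the members, called genes of 7 lipid lists (up to 4 per list and comparison), the 5 (Ch25h) or 3 (others) genes most like each member, and Socs3; the neighbours of Apoe and the sex-linked genes were added after their values were seen. The members and lists were chosen with earlier results of these data known. RefSeq promoter windows matched 5 of 7 members; Lpl and Sqle had no entry used here. The motifs were searched on both strands, upstream of the start. Same-numbered arrays of different groups deviated together with a median correlation of 0.06 (40 pairs, -0.02 to 0.24). The 10 pairs of replicate 3 arrays ran at 0.10 to 0.24, and pairs of different number had a median of -0.04. Same-numbered arrays were thus somewhat more alike, those of replicate 3 most. The main fit did not take the replicate numbers as pairs and leaves this likeness in the spread between arrays. Fits with a replicate block or replicate 3 as a batch are given as alternatives.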

Additional observations from a re-analysis of the deposited data

How the results depend on the processing

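No called change of a member turned direction. Apoe within KO cells, not called, did: its change on leaving out each array ranged from -2.66 to 1.09 at 100 min (above 0 at 0.36, 0.40 and 1.09 without unstimulated KO replicate 1, replicate 2 and KO 100 min replicate 3) and from -2.46 to 0.59 at 400 min (above 0 at 0.56 and 0.59 without unstimulated KO replicates 1 and 2). With replicates 1 and 2 only, Apoe KO minus WT at 400 min was -4.345 (limma adjusted p = 0.00196), a call. A fit of the compared groups alone, with fewer arrays behind the spread, lost the calls of Lpl (-1.395, adjusted p = 0.0849) and Cpt1a (-1.995, adjusted p = 0.0902) in KO cells at 400 min and of Cpt1a between KO and WT (-1.575, adjusted p = 0.434); members called were then 0 in KO cells at 100 min, 1 at 400 min and 0 between KO and WT at 400 min. Leaving out each array in turn gave Lpl in KO cells at 400 min -1.47 to -1.30 and Cpt1a between KO and WT at 400 min -1.87 to -1.27; members called there were 1 to 2. The cause of these losses was not tested. Ch25h stayed between 3.83 and 4.44 at 100 min and between 2.95 and 3.52 at 400 min in KO cells under every setting run. With the replicate number as a replicate block, Cpt1a in KO cells at 400 min was -1.995 (adjusted p = 0.00151), Cpt1a KO minus WT -1.575 (adjusted p = 0.0131) and Lpl -1.395 (adjusted p = 0.0113); no call of a member changed. With replicate 3 as a batch, Cpt1a was called between 400 and 100 min in KO cells. Ch25h then passed the threshold between KO and WT at 100 min, from which nothing is read. With the block, calls over all probe sets rose from 57 to 86 in KO cells at 100 min, from 180 to 305 at 400 min and from 36 to 57 between KO and WT at 400 min. Over all settings those counts ranged from 0 to 117, 52 to 332 and 2 to 122. Signal over background was not analysed here for want of detection calls, and 2 or 3 arrays per group limit the precision.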
